A study of Mus musculus with 4 samples.

Results

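The Lats kinases and the upstream genes of the Hippo pathway were followed as 10 genes, Lats1, Lats2, Stk3, Stk4, Sav1, Mob1a, Mob1b, Nf2, Wwc1 and Frmd6. They were chosen by symbol from a list of Hippo kinases and regulators and make up 10 of the 25289 gene columns of the count files, and each had a column in every library. The data are single-cell RNA counts of adult C57BL/6J mouse small-intestinal epithelium made with inDrop v2, which captures cells in droplets and gives the RNA of each its own barcode. The Lats-deleted group has the genotype Lrig1-CreERT2 Lats1fl/fl Lats2fl/fl, in which a tamoxifen-inducible Cre recombinase is driven from Lrig1, a gene of crypt stem and progenitor cells, so that both kinase genes are meant to be cut in those cells and their progeny. The control group is Lats1fl/fl Lats2fl/fl without the Cre. Mice of both groups were given 2 mg of tamoxifen by intraperitoneal injection and taken at day 7, and 5000 cells per condition were sorted as EpCAM+, CD45-, TER119- and DAPI-. Each group has 2 libraries, and the labels do not say whether they came from separate animals, so a p-value reflects only how far these libraries spread, which may be technical.

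The Hippo pathway restrains tissue growth. The MST kinases (Stk3 encodes MST2, Stk4 encodes MST1), held by the scaffold SAV1, phosphorylate the LATS kinases and their MOB1 coactivators, and active LATS phosphorylates the transcriptional coactivators YAP and TAZ, which are then kept out of the nucleus. NF2, KIBRA (encoded by Wwc1) and FRMD6 act at the cell cortex to bring the kinases together. Lats2 and Nf2 in mammalian cells, and the Wwc1 counterpart kibra in Drosophila, are known targets of YAP or its fly counterpart, through which the pathway feeds back on itself, and in the intestine YAP and TAZ are known for their part in crypt regeneration after injury.

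The promoters of the 2 Lats genes, of the 2 genes with the largest rise (Wwc1 and Frmd6) and of the 2 that held a TEAD motif are shown because YAP and TAZ bind DNA through the TEAD factors. Each stretch is the 250 bases before a RefSeq transcript start (GRCm38.p6), read 5′ to 3′ on the strand of the gene, with the TEAD motif, CATTCC or GGAATG as read on this strand, in capitals. The positions are chr10:7680959-7681208 (plus strand) for Lats1, chr14:57746124-57746373 (minus strand) for Lats2 (the more upstream of its RefSeq starts), chr11:35980528-35980777 (minus strand) for Wwc1, chr12:70825264-70825513 (plus strand) for Frmd6, chr6:83325789-83326038 (plus strand) for Mob1a and chr12:69987003-69987252 (minus strand) for Sav1.
Lats1: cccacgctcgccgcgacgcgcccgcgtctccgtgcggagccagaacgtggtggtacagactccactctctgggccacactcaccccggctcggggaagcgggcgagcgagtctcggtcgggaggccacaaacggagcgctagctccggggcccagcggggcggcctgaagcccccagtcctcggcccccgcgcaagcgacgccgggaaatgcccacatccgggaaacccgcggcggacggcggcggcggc
Lats2: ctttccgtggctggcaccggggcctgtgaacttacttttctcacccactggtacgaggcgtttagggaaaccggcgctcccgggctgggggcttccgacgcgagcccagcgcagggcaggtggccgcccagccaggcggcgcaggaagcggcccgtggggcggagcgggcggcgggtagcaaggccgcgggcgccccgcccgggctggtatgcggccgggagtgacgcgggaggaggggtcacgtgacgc
Wwc1: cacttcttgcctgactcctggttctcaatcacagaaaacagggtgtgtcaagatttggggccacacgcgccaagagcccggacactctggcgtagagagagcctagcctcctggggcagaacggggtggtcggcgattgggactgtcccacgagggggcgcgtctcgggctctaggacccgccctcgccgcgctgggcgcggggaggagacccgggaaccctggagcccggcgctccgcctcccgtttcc
Frmd6: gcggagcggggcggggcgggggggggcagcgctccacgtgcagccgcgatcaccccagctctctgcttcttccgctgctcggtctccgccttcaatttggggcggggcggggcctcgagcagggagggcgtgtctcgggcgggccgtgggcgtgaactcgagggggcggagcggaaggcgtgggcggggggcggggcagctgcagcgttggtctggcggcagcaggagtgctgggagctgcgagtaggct
Mob1a: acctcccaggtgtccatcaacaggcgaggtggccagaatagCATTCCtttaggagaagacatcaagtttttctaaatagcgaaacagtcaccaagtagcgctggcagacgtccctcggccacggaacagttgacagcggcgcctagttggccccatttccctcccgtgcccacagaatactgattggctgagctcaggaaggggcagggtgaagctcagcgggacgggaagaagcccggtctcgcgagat
Sav1: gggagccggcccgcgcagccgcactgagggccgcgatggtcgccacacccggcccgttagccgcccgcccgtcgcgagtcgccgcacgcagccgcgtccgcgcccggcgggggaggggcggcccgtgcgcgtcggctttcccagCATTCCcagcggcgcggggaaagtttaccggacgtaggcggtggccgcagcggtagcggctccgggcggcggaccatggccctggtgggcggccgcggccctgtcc
The motif stood 209 bases before the start of Mob1a and 106 bases before that of Sav1. Of the 11 promoters in the RefSeq table for 9 of the 10 genes, 2 held it, against 12.6% of all 32851 promoters in the table. The AP-1 motif TGANTCA, which reads the same on both strands, was in 0 of the 11 promoters, against 6.75% of all. The promoters of Lats1, Lats2, Wwc1 and Frmd6 held neither string of letters within these windows. A match is a string of letters and says nothing of binding, and these windows leave out distant enhancers.

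A cell was kept if it had 1000 or more counts over 300 or more genes and no more than 30% mitochondrially encoded counts, which left 726 and 1289 cells in Lats-deleted libraries 1 and 2, and 774 and 515 in control libraries 1 and 2. Kept cells held 3562565 and 5826856 counts in the Lats-deleted libraries and 1603796 and 1228504 in the controls, with a median of 3715.5 and 3848 counts per cell against 1708 and 1995. The median mitochondrially encoded share was 3.64% and 3.90% against 9.55% and 6.84%. The cell states differed as well. Clusters named by their markers as enterocyte-like made up 5.23% and 1.63% of cells in the Lats-deleted libraries and 77.8% and 77.3% in the controls, while regenerative-like clusters made up 44.2% and 18.9% of the Lats-deleted cells and held no control cell. Lats-deleted library 1 also held 72 stromal-like cells, and Lats-deleted library 2 held 381 gastric pit-like and 31 gastric gland-like cells. On plain totals the 14 stromal markers summed to 1531 and 220 CPM (counts per 1000000 counts) in Lats-deleted libraries 1 and 2, against 59.2 and 45.6 CPM in the controls, and 6 gastric pit markers to 920 and 9330 against 95.4 and 61.0 CPM, with at most 1 marker of each list at 0 in a library. The 12 regenerative markers summed to 16840 and 12820 CPM, against 79.8 and 71.6 CPM, with 1 and 4 of them at 0 in control libraries 1 and 2. Clusters were named by contrast with all other cells, so unnamed Lats-deleted clusters can hold these markers too. An unnamed cluster led by pancreatic enzyme genes (Ctrb1, Amy1) had 160 and 132 cells in the Lats-deleted libraries and 1 and 0 in the controls. Xist had 585 and 478 CPM in the Lats-deleted libraries, against 10.6 and 7.03 CPM in the controls. The Y-linked gene Ddx3y had 6.67 and 4.38 CPM, against 46.7 and 39.5 CPM. The Y-linked genes Uty, Eif2s3y and Kdm5d were lower as well. The gap was narrowest for Kdm5d, at 10.8 and 10.9 CPM, against 18.4 and 23.7 CPM. Sex and genotype therefore cannot be told apart. The libraries shared between 4 and 12 barcodes per pair among kept cells.

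Lats1 fell and Lats2 rose in the Lats-deleted libraries, Wwc1, Frmd6, Stk4 and Mob1a rose, and Stk3, Sav1, Mob1b and Nf2 did not pass the test. Counts of the kept cells were summed per library, scaled by TMM to CPM and tested with edgeR's quasi-likelihood test, with Benjamini-Hochberg adjustment over all 12561 genes tested and an adjusted p under 0.05 as the threshold. All 10 genes passed the filter on low counts. Of them, 5 were higher and 1 was lower, against a background in which 30.8% of all genes tested were called, 15.3% higher and 15.5% lower. The median log2 fold change of the 10 was 0.71, and that of all genes tested was 0.05. In summed counts, fewer cells of a type and less RNA per cell cannot be told apart.

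**Figure D1:**
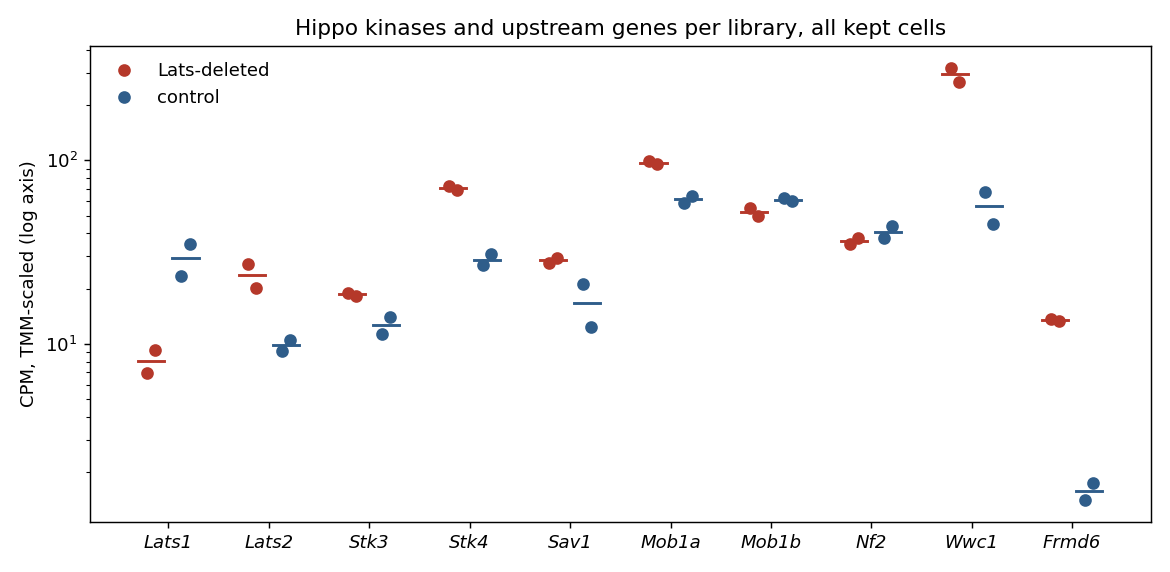
CPM (TMM-scaled, log axis) of the 10 genes in each library over all kept cells. Each point is a library, Lats-deleted in red and control in blue, and the line is the mean of the 2. Lats1 is the only one of the 6 called genes that is lower in the Lats-deleted libraries (6.93 and 9.26 against 23.4 and 35.2 CPM), and Wwc1 and Frmd6 show the widest gaps upward.

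Lats1 (ENSMUSG00000040021.13, chr10:7681214-7716460 on GRCm38, plus strand) had 6.93 and 9.26 CPM in Lats-deleted libraries 1 and 2, against 23.4 and 35.2 CPM in control libraries 1 and 2. These values rest on 27 and 57 counts, against 33 and 40 counts. Both Lats-deleted libraries lay below both controls, and the log2 fold change was -1.83 (SE 0.347, edgeR adjusted p = 0.0087). The call was lost when every cell was thinned to 1000 counts (-1.11, adjusted p = 0.0590) and without control library 2 (-1.49, adjusted p = 0.0871). The labels do not name the exons between the loxP sites, and inDrop reads the 3′ ends of transcripts, so RNA from a cut allele can still be counted and the level measures deletion only in part.

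Lats2 (ENSMUSG00000021959.16, chr14:57689662-57758388, minus strand), the other gene aimed at by the Cre, had 27.2 and 20.1 CPM in the Lats-deleted libraries, against 9.20 and 10.6 CPM in the controls. The values rest on 106 and 124 counts, against 13 and 12. The groups did not overlap, as in 35.6% of all genes tested with both Lats-deleted libraries above both controls and in 33.2% with both below, and the log2 fold change was 1.26 (SE 0.335, edgeR adjusted p = 0.0305). The call was lost with DESeq2 (adjusted p = 0.0596), with cells thinned to 1000 counts (adjusted p = 0.0721) and without control library 1 (adjusted p = 0.178) or 2 (adjusted p = 0.124). Lats2 overlaps the predicted gene Gm49361 on the same strand, as Stk4 does Gm11455, and Lats2, Stk4, Sav1 and Mob1b overlap genes on the other strand, Tomm34 and Atl1 among them. Whether counting used strand is not given in the sources used here, so reads of such partners cannot be told apart.

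The share of Lats1 in the counts of the kinase pair lay apart between the groups. Lats1 gave 20.3% (95% interval 13.8 to 28.1) and 31.5% (24.8 to 38.8) of the summed Lats1 and Lats2 counts in the Lats-deleted libraries, and 71.7% (56.5 to 84.0) and 76.9% (63.2 to 87.5) in the controls. The intervals are exact (Clopper-Pearson) and cover counting error only, and those of the groups do not overlap. With 2 libraries against 2, the two-sided exact permutation test gave p = 0.33, the smallest it allows. Such a share was computed after the values had been seen, and it does not depend on library scaling. After thinning to 1000 counts per cell it was 27.3% and 36.2% in the Lats-deleted libraries, against 68.0% and 72.2% in the controls, on fewer counts, and the interval of Lats-deleted library 2 (22.7 to 51.5) then overlaps those of the controls (from 46.5 in both).

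**Figure D2:**
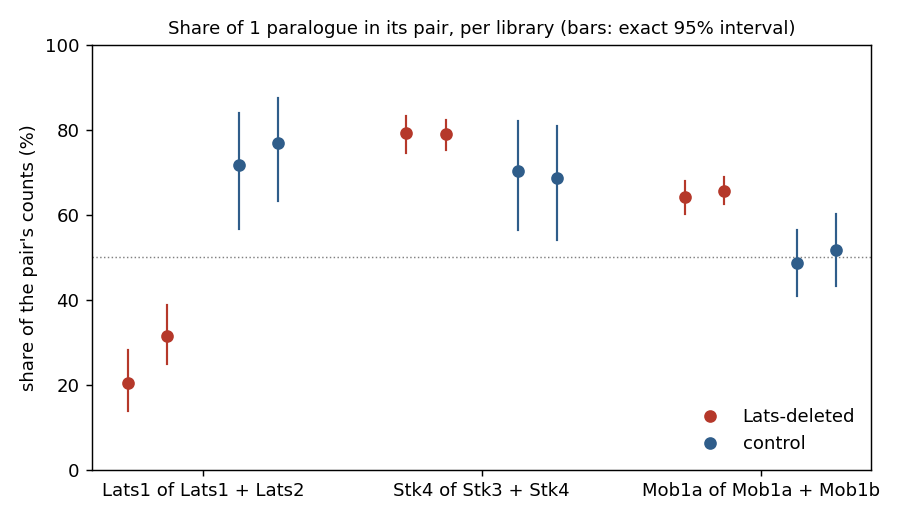
Share of 1 gene in the summed counts of a paralogue pair (%, axis from 0 to 100) for each library, Lats-deleted in red and control in blue, with exact 95% intervals as bars and a dotted line at 50%. The Lats1 share is 20.3% and 31.5% in the Lats-deleted libraries and 71.7% and 76.9% in the controls, a far wider gap than in the Stk4 and Mob1a pairs.

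Of the MST kinases, Stk4 (MST1, chr2:164070322-164155524, plus strand) had 72.3 and 69.0 CPM in the Lats-deleted libraries, against 26.9 and 30.8 CPM in the controls. Stk4 rose by a log2 fold change of 1.296 (SE 0.221, edgeR adjusted p = 0.00582), on 282 and 425 counts against 38 and 35. The libraries of a group lay close together, yet the call was lost without control library 1 (adjusted p = 0.0935) or 2 (adjusted p = 0.0641). Its paralogue Stk3 (MST2, chr15:34875496-35178921, minus strand) had 19.0 and 18.4 CPM, against 11.3 and 14.1 CPM, a log2 fold change of 0.56 that did not pass (SE 0.307, adjusted p = 0.210). Stk4 gave 79.2% and 79.0% of the counts of the pair in the Lats-deleted libraries, against 70.4% and 68.6% in the controls (exact permutation p = 0.33, the smallest possible), and the intervals of the groups overlap. With thinned cells the shares were 74.3% and 82.7%, against 75.9% and 68.2%, and the groups overlapped.

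Sav1 (chr12:69965012-69987002, minus strand), the scaffold that joins the MST kinases to LATS, had 27.7 and 29.6 CPM in the Lats-deleted libraries, against 21.2 and 12.3 CPM in the controls. The controls lay further apart than the Lats-deleted libraries, and the log2 fold change of 0.75 did not pass (SE 0.326, edgeR adjusted p = 0.127). Sav1 passed with plain library totals in place of TMM (1.01, adjusted p = 0.0466) and without Lats-deleted library 1 (0.79, adjusted p = 0.0376).

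Of the MOB1 coactivators, Mob1a (chr6:83326016-83343776, plus strand) had 98.8 and 95.7 CPM in the Lats-deleted libraries, against 58.8 and 64.2 CPM in the controls. Mob1a rose by 0.66 (log2; SE 0.197, edgeR adjusted p = 0.0442). The call was lost in more of the alternatives than that of any other of the 6. It did not hold with DESeq2 (adjusted p = 0.0875), with thinned cells (0.0569), with at least 2000 counts per cell (0.105), with at most 15% mitochondrially encoded counts (0.0760) and without either control library (0.277 and 0.220). Mob1b (chr5:88720855-88764220, plus strand) had 55.2 and 50.02 CPM, against 62.3 and 59.8 CPM, and did not pass (-0.22, SE 0.204, adjusted p = 0.464). Mob1a gave 64.2% and 65.7% of the counts of the pair in the Lats-deleted libraries, against 48.5% and 51.8% in the controls, with exact intervals of 60.2 to 68.0 and 62.4 to 68.8, against 40.8 to 56.3 and 43.2 to 60.3, of which only Lats-deleted library 1 and control library 2 touch. The permutation test again gave its smallest possible p of 0.33. Outside the enterocyte-like clusters the control shares lay on both sides of the Lats-deleted ones. Counts of Mob1a and Mob1b there were 381 and 210 in Lats-deleted library 1, and 588 and 305 in Lats-deleted library 2. They were 35 and 23 in control library 1, and 42 and 15 in control library 2.

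The regulators at the cell cortex moved unequally. Wwc1 (KIBRA, which recruits and activates LATS; chr11:35838400-35980527, minus strand) had 319 and 267 CPM in the Lats-deleted libraries, against 67.3 and 44.8 CPM in the controls. It rose by a log2 fold change of 2.38 (SE 0.274, edgeR adjusted p = 0.00123), on 1245 and 1646 counts against 95 and 51. The call held in all 16 alternatives run on all kept cells, between 2.14 and 3.56, with adjusted p of at most 0.0346. Frmd6 (also called Willin; chr12:70825514-70902234, plus strand) had 13.6 and 13.3 CPM, against 1.42 and 1.76 CPM, from 53 and 82 counts against 2 and 2. The ratio of summed counts over scaled totals was 8.56 (95% counting interval 3.27 to 31.9), and the edgeR log2 fold change was 3.07 (SE 0.475, adjusted p = 0.00399). Frmd6 lost its call without control library 1 (adjusted p = 0.0550). Nf2 (merlin, the product of the neurofibromatosis type 2 gene; chr11:4765845-4849536, minus strand) had 34.9 and 37.5 CPM, against 37.5 and 43.9 CPM, and did not pass (-0.17, SE 0.231, adjusted p = 0.632). The signs for Nf2 and Mob1b changed with plain library totals, to 0.09 and 0.04. Over the 16 alternatives Nf2 ran from -0.51 to 0.26 and Mob1b from -0.65 to 0.04.

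**Figure D3:**
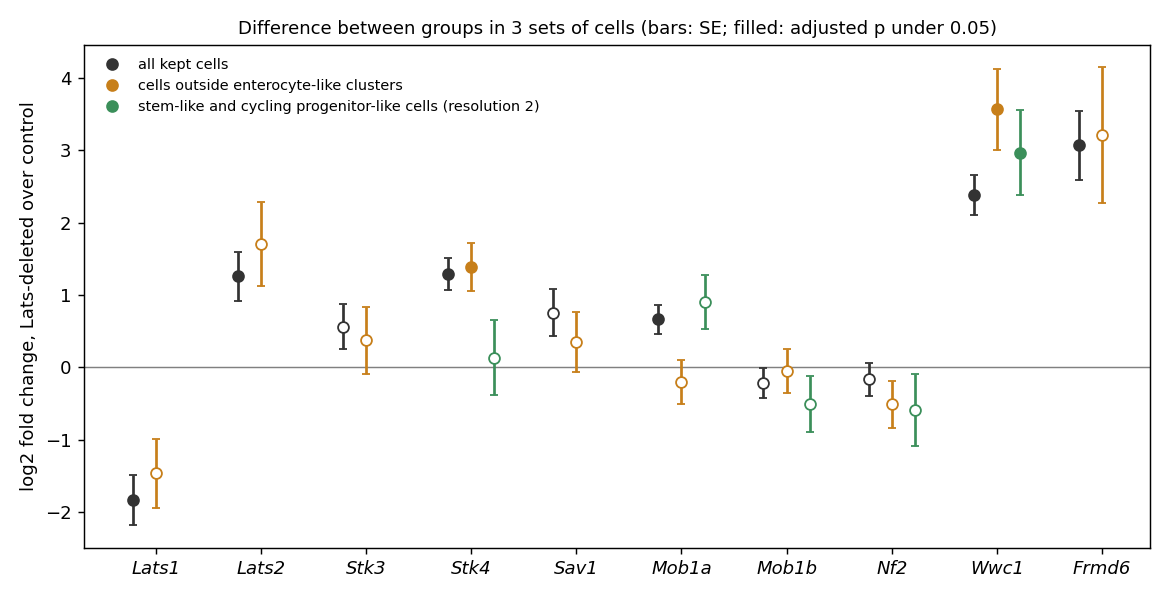
Log2 fold change, Lats-deleted over control, of the 10 genes in 3 sets of cells, with the SE as bars and filled points for an edgeR adjusted p under 0.05. Wwc1 is filled in all 3 sets (2.38, 3.56 and 2.97). Mob1a is above 0 in all kept cells (0.66) and below 0 outside the enterocyte-like clusters (-0.20), and 5 genes have no point in the progenitor-like cells because they were not tested there.

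Because most control cells were enterocyte-like, the groups were also set side by side without the enterocyte-like clusters, a choice made after the data had been seen. The 15 enterocyte markers summed to 1747 and 865.5 CPM in the Lats-deleted libraries, against 29160 and 28860 CPM in the controls over all kept cells, with none at 0. Outside those clusters 2 of the 10 genes were called, both higher, against a background of 12.6% of genes called, 6.41% higher and 6.19% lower. Wwc1 had 352.5 and 278 CPM in the Lats-deleted libraries, against 43.4 and 6.94 CPM in the controls, from 1236 and 1641 counts against 16 and 2 (3.56, SE 0.559, edgeR adjusted p = 0.00736). Stk4 had 79.6 and 71.9 CPM, against 29.8 and 27.8 CPM (1.39, SE 0.328, adjusted p = 0.0330). Lats1 kept its direction with no call at 7.13 and 9.30 CPM, against 21.7 and 24.3 CPM (-1.46, SE 0.478, adjusted p = 0.0903), as did Lats2 at 29.7 and 20.8 CPM, against 5.43 and 10.4 CPM (1.71, SE 0.584, adjusted p = 0.103). Frmd6 was at 15.1 and 13.7 CPM, against 2.71 and 0 CPM (adjusted p = 0.0658). The controls held 8 and 7 counts of Lats1 and 2 and 3 of Lats2 there.

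Mob1a turned its direction there, to 109 and 99.5 CPM in the Lats-deleted libraries, against 94.95 and 146 CPM in the controls, and the groups overlapped (-0.20, SE 0.301, edgeR adjusted p = 0.725). An unnamed cluster gave 21.7% and 43.8% of all Mob1a counts in control libraries 1 and 2, from 7.11% and 7.38% of the cells and 7.89% and 9.97% of all counts. Its leading genes were of goblet cells (Zg16, Muc2, Tff3) and, in larger number, of Paneth cells (Lyz1 and the defensin genes Defa17, Defa23, Defa24 and Defa-rs7). Defa23 and Defa-rs7 are not on the Paneth marker list. The goblet and Paneth lists therefore held equally many of the leading genes, so the cluster was given neither name. On plain totals Mob1a stood at 142 and 261 CPM in that cluster and at 39.4 and 33.7 CPM in the enterocyte-like cells of the same libraries, with 95% counting intervals of 84.3 to 225 and 179 to 369 CPM in the cluster and 29.1 to 52.2 and 22.9 to 47.9 CPM in the enterocyte-like cells. The Lats-deleted libraries held 2 and 5 cells of that cluster, against 55 and 38 in the controls. Over all kept cells the 10 goblet markers summed to 234 and 1087 CPM in the Lats-deleted libraries, against 18120 and 33450 CPM in the controls, with none at 0, and 9 Paneth markers to 86.2 and 425 CPM, against 2744 and 4929 CPM, with 3 at 0 in Lats-deleted library 1. Their part in the values of Mob1a was not tested.

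The Cre is driven in stem and progenitor cells, so these were compared between groups where clusters allowed it. At the resolution first used, no control cell fell in a cluster named stem-like or cycling progenitor-like. At a finer resolution 33 and 320 such cells were found in the Lats-deleted libraries, against 118 and 71 in the controls. The classes are not alike, since cycling progenitor-like clusters held most of the Lats-deleted cells and stem-like clusters nearly all control cells. Of the 10 genes 5 passed the filter on low counts and 1, Wwc1, was called, against a background of 20.3% of 4088 genes called and 9.78% higher. Wwc1 had 344 and 273 CPM in the Lats-deleted libraries, against 64.0 and 6.84 CPM in the controls, from 55 and 370 counts against 13 and 1 (2.97, SE 0.587, edgeR adjusted p = 0.00973). The control libraries differed from each other in Wwc1 here by more than in the other 2 sets of cells, and the log2 fold change was 5.41 without control library 1 and 2.25 without control library 2.

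Stk4 did not pass in these cells, with 31.3 and 61.3 CPM in the Lats-deleted libraries, against 59.1 and 34.2 CPM in the controls, and the groups overlapped (0.14, SE 0.518, edgeR adjusted p = 0.878). Mob1a stood at 106 and 125 CPM, against 64.0 and 61.5 CPM (0.91, SE 0.374, adjusted p = 0.124), Mob1b at 50.04 and 59.1, against 78.8 and 82.1 CPM (-0.50, adjusted p = 0.406), and Nf2 at 81.3 and 38.4, against 69.0 and 82.1 CPM (-0.58, adjusted p = 0.450). Lats1 and Lats2 were too sparse to test. Lats1 had 0 and 12 counts in the Lats-deleted libraries, against 7 and 5 in the controls, that is 0 and 8.87 CPM against 34.5 and 34.2 CPM. Lats2 had 0 and 26 counts, against 0 and 0.

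By cluster and library, taking the 20 units of at least 50 cells and plain totals, Lats1 ran between 2.61 and 14.1 CPM in the 11 units of the Lats-deleted libraries and between 12.96 and 49.7 CPM in the 9 units of the controls. The clusters had been built without the 10 genes. Neighbouring units in this order had overlapping counting intervals, since each rests on 1 to 17 counts of Lats1. The Lats-deleted values included gastric pit-like cells (6.93 CPM) and stromal-like cells (10.5 CPM, 2 counts). The 38 and 21 enterocyte-like cells left in the Lats-deleted libraries held 2 and 2 counts of Lats1, that is 20.9 and 36.4 CPM, against 20.5 and 35.9 CPM in the 602 and 398 enterocyte-like cells of the controls. With intervals of 2.53 to 75.5 and 4.403 to 131 CPM, these few cells could not show whether Lats1 was lower in them.

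Lats2 ran between 10.7 and 47.3 CPM in the units of the Lats-deleted libraries and between 0 and 33.1 CPM in those of the controls, so the units overlapped. Its values also lay apart among the control enterocyte-like clusters, of which the highest and the lowest among those with at least 50 cells in each control library are given. The cluster led by Ada and Apoa4, genes of the villus tip, had 29.7 and 33.1 CPM in control libraries 1 and 2, while the cluster led by Apol10a and Ccl25 had 0 and 3.10 CPM. Their 95% counting intervals were 12.8 to 58.6 and 9.03 to 84.8 CPM, against 0 to 9.81 and 0.0784 to 17.3 CPM, which overlap in library 2 and not in library 1. In regenerative-like cells Lats2 reached 36.3 and 27.0 CPM, from 81 and 37 counts, and these cells held 76.4% and 29.8% of all Lats2 counts of their libraries, and 62.7% and 23.5% of the counts of all genes. The highest unit was the stromal-like cluster of Lats-deleted library 1 (47.3 CPM, 9 counts, interval 21.6 to 89.8), whose interval overlaps those of the regenerative-like cells.

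**Figure D4:**
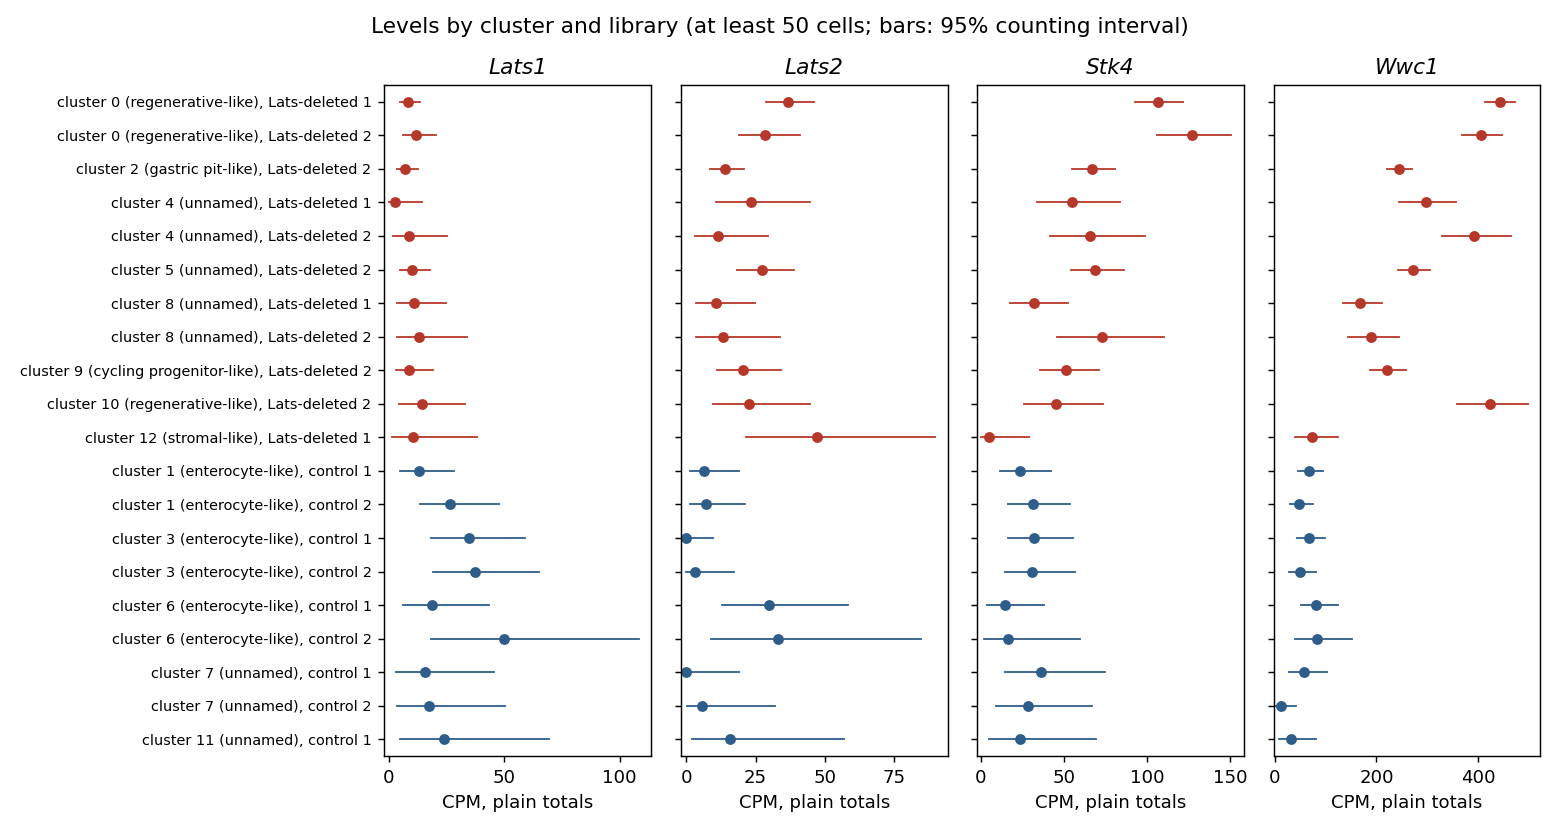
CPM on plain totals of Lats1, Lats2, Stk4 and Wwc1 in each cluster and library of at least 50 cells, with 95% Poisson counting intervals as bars, Lats-deleted units in red above control units in blue. Wwc1 lies at or below 82.8 CPM in every control unit and at or above 168.5 CPM in every Lats-deleted unit except the stromal-like one (73.6 CPM).

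Wwc1 separated the units of the groups. It ran between 168.5 and 442 CPM in the 10 Lats-deleted units that were not stromal-like. In the control units it ran between 11.5 and 82.8 CPM. The highest values were in regenerative-like cells. The cluster led by Plat and Tgfb2 had 442 and 406 CPM, and the one led by Clca4a had 424 CPM in Lats-deleted library 2. The stromal-like unit had 73.6 CPM, within the range of the controls. The lowest Lats-deleted units other than stromal-like cells were those led by Wfdc18 (168.5 and 189 CPM), and the gastric pit-like cells had 244 CPM. In the enterocyte-like cells left in the Lats-deleted libraries Wwc1 was at 94.1 and 90.9 CPM (9 and 5 counts, intervals 43.0 to 179 and 29.5 to 212), against 64.8 and 53.3 CPM in control enterocyte-like cells, a difference within the counting intervals.

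Stk4 was highest in the regenerative-like cluster led by Plat, at 107 and 127 CPM. It had 32.0 to 72.9 CPM in the other Lats-deleted units that were not stromal-like, and 14.9 to 36.3 CPM in the control units. These ranges overlapped, unlike those of Wwc1. Stromal-like cells of Lats-deleted library 1 had 5.26 CPM, from 1 count. In Lats-deleted library 1, Frmd6 had the largest share of its counts in stromal-like cells among the 10 genes. They had 73.6 CPM of Frmd6 in Lats-deleted library 1 and gave 26.4% of its counts, from 9.92% of the cells. In Lats-deleted library 2, with 8 such cells, they held 1 of 82 counts of Frmd6. Gastric pit-like cells of Lats-deleted library 2 gave 12.2% of its Frmd6 counts, from 29.6% of the cells. Without the stromal-like and gastric-like clusters together the log2 fold change of Frmd6 was 3.07 (edgeR adjusted p = 0.00361), as large as with them. The part of the stromal-like cells alone was not tested. Without both kinds of cluster the same 6 of the 10 genes were called, and so were 4508 of all 12418 genes tested, 2251 of them higher.

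With each cell thinned to 1000 counts, shares of cells with a count differed in the direction of the CPM for 9 of the 10 genes, and in the other direction for Nf2 (4.41% and 4.50% in the Lats-deleted libraries, against 3.10% and 3.30% in the controls), from which no order is read. Without thinning, the shares of all 10 genes but Lats1 were higher in the Lats-deleted libraries, whose cells were deeper. Among the thinned shares, Wwc1 was counted in 22.04% and 22.65% of cells in the Lats-deleted libraries, against 4.52% and 3.50% in the controls, a difference of 18.3 percentage points. Mob1a was counted in 9.37% and 9.15%, against 3.75% and 4.85%, and Stk4 in 6.61% and 7.14%, against 2.58% and 2.72%. Lats1 was counted in 1.24% and 1.16%, against 2.07% and 2.52%, a difference of -1.09 points, and Lats2 in 3.17% and 2.25%, against 0.904% and 0.971%. For each of the 10 genes the exact permutation test gave p = 0.33, its smallest value. Without thinning Wwc1 was counted in 55.1% and 56.4% of cells, against 9.56% and 8.35%. No cell class was taken to lack these genes, so the part of free RNA in such shares was not tested.

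By a rule on likeness, the genes whose log2(CPM + 10) over the 20 units was most like that of Lats1, among 3320 genes of at least 50 CPM on average, were BC030870 (Pearson r = 0.83), Oprm1 (0.82) and Aamdc (0.82). Those most like Lats2 were Rragc (0.84), Pard6b (0.82) and Tmem43 (0.81). The units share 4 libraries and a unit held a median of 5.5 counts of Lats1 and 4.5 of Lats2, so these values only describe the units.

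Most other genes of the pathway that passed the test were higher in the Lats-deleted libraries. Of 62 listed genes 60 had a column, 56 were tested in the same fit, 26 were higher and 1 was lower, against the 30.8% of all genes tested that were called, 15.3% higher and 15.5% lower. The median log2 fold change of the 56 was 0.73, against 0.05 over all genes. Outside the enterocyte-like clusters 16 of 55 tested were called (14 higher and 2 lower). Of all genes tested there 12.6% were called, 6.41% higher and 6.19% lower. Without either control library fewer were called, both of these genes and of all genes. The median log2 fold change of the pathway genes was then 0.78 without control library 1 and 0.90 without control library 2, against 0.07 over all genes in both. Among the coactivators and their TEAD partners 5 of 8 rose. Wwtr1, which encodes TAZ, had 70.8 and 61.9 CPM in the Lats-deleted libraries, against 3.54 and 2.64 CPM in the controls (log2 fold change 4.39, SE 0.332, edgeR adjusted p = 0.000304). Tead1 rose by 3.30 and Tead4 by 2.40, and Tead2 was called at 6.93 and 13.2 CPM, against 1.42 and 0.879 CPM, with 2 and 1 counts in the controls. Tead4 and Tead2 lost their calls without either control library (adjusted p of 0.0520 to 0.115) and outside the enterocyte-like clusters (0.0850 and 0.218), Tead2 also without Lats-deleted library 2 (0.0533) and Tead4 in the barcodes under 1000 counts (0.0774). Yap1 did not pass, at 70.8 and 57.2 CPM, against 43.9 and 38.7 CPM (0.63, SE 0.230, adjusted p = 0.0812).

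The junction and apical scaffolds, the longest list, gave the most calls, with 13 of 18 tested genes higher and none lower (5 did not pass). Of all genes tested 15.3% were higher and 15.5% lower. They included Wwc2, the paralogue of Wwc1, with 197 and 221 CPM in the Lats-deleted libraries, against 1.42 and 3.52 CPM in the controls (6.44, SE 0.369, edgeR adjusted p = 0.000184). The LIM protein genes Ajuba and Wtip, whose products hold back LATS, also rose. Ajuba had 134 and 165 CPM, against 0 and 3.52 CPM (6.52, SE 0.614, adjusted p = 0.000579), and Wtip had 78.0 and 75.0 CPM, against 5.66 and 4.39 CPM (3.90). Tjp1, a tight junction scaffold, rose by 2.56. Each of these 4 and Wwtr1 and Tead1 held their calls in all 16 alternatives. The size of the Ajuba value is loose, since the controls held 0 and 4 counts, and it was 5.44 without control library 1 and 12.16 without control library 2, where the lone control held 0, and 4.25 in barcodes under 1000 counts.

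Of 8 tested kinases that can phosphorylate LATS in place of MST, 3 rose, 1 fell and 4 did not pass, against the 15.3% and 15.5% of all genes. Tnik fell by 2.59 on the log2 scale (SE 0.244, edgeR adjusted p = 0.000582), with 11.0 and 11.9 CPM in the Lats-deleted libraries, against 75.0 and 63.3 CPM in the controls, in the opposite direction to Map4k5 (1.94), Map4k4 (1.12) and Taok3 (0.88). Map4k4 and Taok3 each lost their call in 5 of 16 alternatives, among them those without either control library (adjusted p of 0.123 to 0.217), and Map4k5 in 2, without control library 2 (0.0638) and outside the enterocyte-like clusters (0.0577). Of the STRIPAK phosphatase and MST regulator genes, 4 of 14 rose, namely Rassf1 (1.84), Strn3 (1.19), Strn4 (0.94) and Ppp2r1a (0.81), and none fell, a share called near the 30.8% of all genes. Ppp2r1a lost its call in 6 of 16 alternatives (log2 fold change down to 0.39, adjusted p up to 0.417), Strn4 in 5 (up to 0.346), Strn3 in 3 (up to 0.124) and Rassf1 in 1 (0.0581), those without either control library being among them for all but Rassf1. Of 4 ubiquitin ligases that act on LATS only Nedd4 rose (1.73, edgeR adjusted p = 0.00214), and its call was lost without control library 1 (0.0696) and outside the enterocyte-like clusters (0.103). Neither of 2 NDR kinases, relatives of LATS, nor of 2 tested genes of the FAT cadherin branch passed. Lrig1, the gene that drives the Cre, had 11.8 and 14.1 CPM in the Lats-deleted libraries, against 16.99 and 17.58 CPM in the controls, and did not pass (-0.41, SE 0.306, adjusted p = 0.357).

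**Figure D5:**
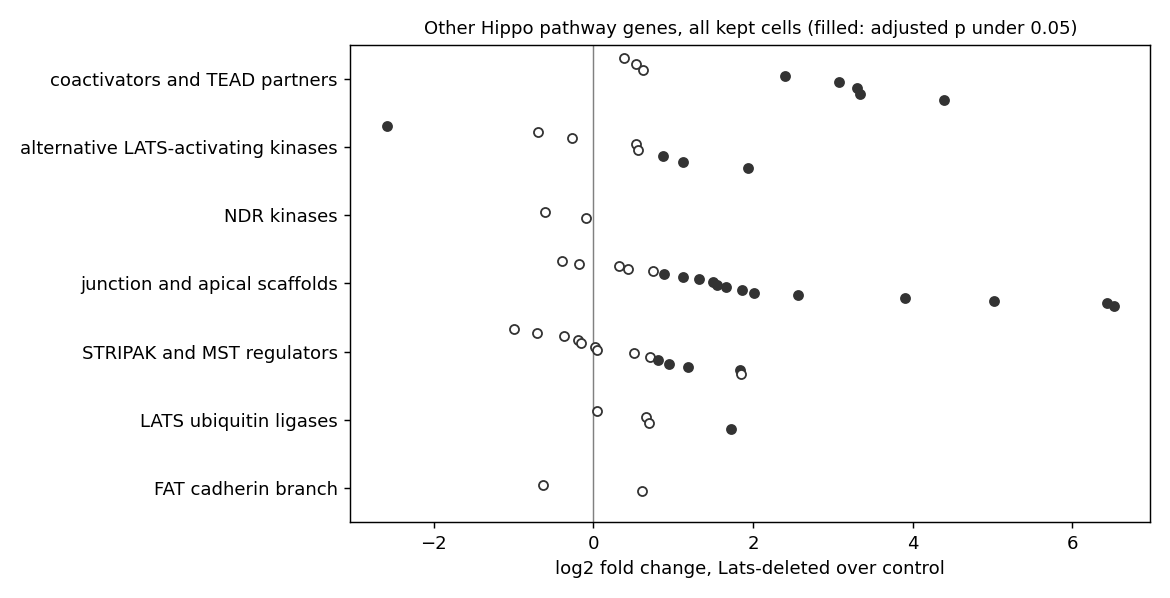
Log2 fold change, Lats-deleted over control, of the 56 other Hippo pathway genes tested in all kept cells, 1 point per gene and 1 row per list, filled for an edgeR adjusted p under 0.05. The 13 filled points of the junction and apical scaffolds all lie above 0, up to 6.52 for Ajuba (4.25 to 12.16 over the alternatives), and Tnik, at -2.59, is the only filled point below 0.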

How the data were processed

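The values are whole-number counts per barcode and gene symbol, deposited by the authors in 1 file per library with no normalization, per the file headers. RSEM 1.3.0, Bowtie 1.1.1.1, SAMtools 1.3.1 and mm10 are named, without their roles, per the submitters' processing notes. Whether counts are of molecular identifiers is not given in the sources used here. The 10 genes, the pathway and marker lists and the rule for named genes (all 10, up to 4 called genes of the smallest p per pathway list, Yap1, Wwtr1, Lrig1, and the 3 genes most like Lats1 and Lats2) were chosen with earlier results of these data known.

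File totals were 4731529 and 9191916 counts in the Lats-deleted libraries and 2872497 and 2247269 in the controls. Kept cells, as defined with the results, were clustered by the Leiden method (leidenalg 0.10.2, resolution 1, seed 1) in scanpy 1.11.5, on a graph of 15 neighbours in 30 principal components of 2000 variable genes, the 10 genes left out, after scaling each cell to 10000 counts and taking logs. A cluster was named "-like" from at least 3 raised markers of a list, and left unnamed where another list held more of its 10 leading genes, or as many and at least 3. Doublets were not called. Sums per library were filtered with filterByExpr, TMM-scaled and compared by the quasi-likelihood test of edgeR 4.0.16 in R 4.3.3, and the SE is the log2 fold change over the root of its F. CPM within clusters use plain totals and exact Poisson 95% intervals. DESeq2 1.42.0 was an alternative. Progenitor-like cells could be tested only at a resolution of 2, because no control cell was so named at 1. Intervals cover counting error only. Fits were tested on simulated data. Coordinates are from GENCODE M21 (GRCm38, the assembly of mm10), in which 97.1% of the gene columns have a symbol. Map4k3 and Patj are not analysed here. Replicate numbers were checked for pairing, and deviations of same-numbered libraries correlated across genes at r = 0.073, so the numbers were not taken to pair them.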

Additional observations from a re-analysis of the deposited data

Results flagged for a closer look

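Barcodes under 1000 counts, which the comparisons leave out, held differences in 4 of the 9 of these genes that could be tested in them. There were 4146 and 15455 of them in the Lats-deleted libraries and 3546 and 3340 in the controls. In their summed counts 38.2% of the 9813 genes tested were called. Calls in 4 of 9 are near that share, so they do not set these genes apart from all genes. The barcodes drew attention because a signal appeared above the control level in data outside the measured cells. Wwc1 had 171 and 272 CPM in the Lats-deleted libraries, against 50 and 41.6 CPM in the controls, a log2 fold change of 2.28 (edgeR adjusted p = 0.00271). Stk4 had 68.3 and 81.9 CPM, against 25.5 and 30.2 CPM, a log2 fold change of 1.45 (adjusted p = 0.00675). Mob1a had 101 and 81.7 CPM, against 41.5 and 53.0 CPM, a log2 fold change of 0.95 (adjusted p = 0.0285). Lats1 was lower there too, at 8.67 and 7.83 CPM, against 37.7 and 32.8 CPM (-2.12, adjusted p = 0.00463). Lats2, called higher in the kept cells, was not called in these barcodes (0.94, adjusted p = 0.133). Stk3, Sav1, Mob1b and Nf2 were not called either, and Frmd6 could not be tested. These barcodes come from the same 4 libraries, so they are no further replicates, and the part of free RNA, broken cells and small cells in them was not tested.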

How the results depend on the processing

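In all kept cells 3869 genes were called, with 6 of the 10 Hippo genes and 27 of the 56 other pathway genes, and each count was made again under 16 alternatives. Leaving out each library in turn gave 1228 to 5387 genes, 2 to 7 of the 10 and 10 to 33 pathway genes, and the lowest counts came without control library 1 (1228, 2 and 10) or 2 (1478, 2 and 11). Where a control is left out, the lone control is assumed to vary like the Lats-deleted libraries. Thinning every cell to 1000 counts left 2 of the 9 genes tested, both higher. Under that setting 2971 of all 8710 genes tested were called, 1434 of them higher. Without enterocyte-like clusters, a choice made after the data were seen, 1467 genes, 2 of the 10 and 16 pathway genes were called, and the log2 fold change of Mob1a turned to -0.20. The cause was not tested, though fewer control cells enter that fit by construction. Wwc1 remained called in all 16, and in progenitor-like cells in all 8. Plain library totals moved the median of all genes to 0.30 and the share of calls that were higher to 63.8%, against 49.7% with TMM, and no filter gave 61.5%. With the replicate number as a block, 4162 genes, 6 of the 10 and 28 pathway genes were called, and 1 in progenitor-like cells. The block changed no call among the 10, and the numbers were not shown to pair the libraries (r = 0.073). At 12 to 124 counts of Lats1 or Lats2 per library, depth limits what clusters can show.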
